A study of Homo sapiens with 9 samples.

Results

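HGF, its receptor MET, the related ligand MST1 with its receptor MST1R, the protease matriptase (ST14) and the protease inhibitors SPINT1 and SPINT2 were followed by RNA sequencing in RKO cells with a targeted DIP2C gene. The rows of these 7 genes were taken by symbol from the 23619 rows of each table of estimated counts, and all 7 passed the filter on low values. The group was chosen on the CPM of HGF in these same samples, which was high in some clones only, and the other genes were chosen by their part in its activation. The HGF values are therefore given as a description and were not tested, and the other 6 genes were tested. The question put to the data was whether mRNA of the receptor and of the activating proteases was present in the clones with high HGF mRNA.

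RKO is a human colorectal cancer cell line. DIP2C was disrupted by recombinant adeno-associated virus, which removed a short stretch of 1 exon, and the selection marker was then excised with Cre recombinase. The 9 samples were 2 of parental RKO with unaltered DIP2C (parental-1 and parental-2), 2 DIP2C-/- clones (E3 and C10) and 5 DIP2C+/- clones (A6-C9, A9-A12, F6-A7, G1-A5 and H9-A4), all grown for 48 h and sequenced as 1 library each. Each clone grew from a single cell, the DIP2C-/- clones were made by retargeting 1 DIP2C+/- clone, and no clone that had passed through targeting with both DIP2C alleles intact was analysed here, so that genotype and clonal origin cannot be told apart. The study describes fewer DIP2C+/- clones than are labelled as such, and how the labelled clones relate to one another is not given in the sources used here, so that their independence as replicates is not established.

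HGF (hepatocyte growth factor, or scatter factor) is normally secreted by fibroblasts and other stromal cells as an inactive single chain. A serine protease has to cleave it before it can activate MET, a receptor tyrosine kinase on epithelial cells that drives growth, scattering and invasion. MST1 (macrophage stimulating protein) and MST1R (RON) form the sister pair and depend on the same kind of cleavage. Matriptase, hepsin and the HGF activator are the best known activating proteases, and SPINT1 (HAI-1) and SPINT2 (HAI-2) are membrane-bound inhibitors of them. Cells that make both HGF and MET can stimulate themselves, which is called an autocrine loop.

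The estimated counts of a sample summed to between 14772593 and 21486483 (median 18751852). Levels are given as CPM, counts per 1000000 counted, after scaling by trimmed mean of M values (TMM) factors. The smallest number taken as detectable, 3 counts, corresponded to 0.14 to 0.203 CPM before that scaling. DIP2C itself stood at 61.0 and 70.9 CPM in parental RKO, at 17.4 and 22.8 CPM in the DIP2C-/- clones and at 33.6 to 56.3 CPM in the DIP2C+/- clones, so every clone was below both parental samples. H9-A4 stood apart from the other DIP2C+/- clones across the transcriptome. The chi-square per degree of freedom between replicate pairs was 100.2 to 117.7 for the pairs with H9-A4, in a range of 18.0 to 117.7 over all pairs, and results are therefore given with and without this clone. Of the markers of colorectal epithelium, KRT18 and CDX2 were above 10 CPM in all 9 samples and KRT8 in all but H9-A4 (7.01 CPM), whereas 5 of the 9 listed, among them CDH1, VIL1 and KRT20, stayed under 1 CPM in all 9 samples.

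The HGF and MET genes lie on the same chromosome in the GRCh37 build, HGF on the minus strand at chr7:81328326-81399754 and MET on the plus strand at chr7:116312250-116438431. The other members were annotated at chr3:49721380-49726934 (MST1, minus strand), chr3:49924435-49941306 (MST1R, minus strand), chr15:41136216-41150405 (SPINT1, plus strand), chr19:38734675-38783255 (SPINT2, plus strand) and chr11:130029677-130080257 (ST14, plus strand). Sequence upstream of the start was taken from RefSeq windows of the GRCh38.p14 assembly, which were present for 5 of the 7 genes, and was placed in GRCh37 by exact match. The windows of HGF and MET are shown because this ligand differed most between clones and this receptor least. Capitals mark CG, the dinucleotide that carries most DNA methylation in human cells and that reads the same on both strands, and both sequences run 5′ to 3′ on the strand of the gene. The HGF stretch covers chr7:81399453-81399606, the part of its window that no annotated exon covers, and ends 89 bases before the RefSeq start. The whole HGF window (chr7:81399364-81399613) lies inside the annotated span of HGF given above. It thus precedes the RefSeq start but not the annotated start. The MET stretch covers chr7:116312000-116312249, outside the annotated span of MET, and ends at the RefSeq start.
HGF: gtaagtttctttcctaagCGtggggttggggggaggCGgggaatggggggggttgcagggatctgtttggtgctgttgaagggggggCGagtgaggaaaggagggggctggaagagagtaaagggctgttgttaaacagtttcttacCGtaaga
MET: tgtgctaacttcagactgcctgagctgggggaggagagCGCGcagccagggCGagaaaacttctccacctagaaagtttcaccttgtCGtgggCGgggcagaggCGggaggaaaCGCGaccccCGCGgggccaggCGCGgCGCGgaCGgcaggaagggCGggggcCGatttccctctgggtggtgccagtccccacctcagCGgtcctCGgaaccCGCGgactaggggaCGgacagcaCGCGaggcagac
CG occurred 6 times in the full 250 bases upstream of the RefSeq start of HGF, 4 of them in the stretch shown. It occurred 24 times upstream of the RefSeq start of MET. The 2 windows are unlike regions, since only that of HGF lies inside its annotated gene. The other windows held 30 (MST1), 20 (MST1R) and 35 and 22 (2 starts of SPINT1). At least 1 CG was present in 93.9% of the 35116 RefSeq windows of this length, with a median of 11 per window, and 38.1% of windows held fewer than HGF against 76.3% for MET. Methylation of these stretches was not measured here.

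HGF mRNA was present at a clear level in 4 of the 7 clones and close to the detection limit in the other 5 samples. HGF stood at 0.64 CPM in parental-1 and 0.291 CPM in parental-2. In the DIP2C-/- clones it stood at 15.7 CPM in E3 and 15.9 CPM in C10. In the DIP2C+/- clones it stood at 11.96 CPM in F6-A7, 0.403 CPM in H9-A4, 0.296 CPM in A9-A12, 0.17 CPM in G1-A5 and 17.4 CPM in A6-C9. Both DIP2C-/- clones were thus far above both parental samples, while the DIP2C+/- clones split, with F6-A7 and A6-C9 beside the DIP2C-/- clones and the other 3 clones in or below the parental range.

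Against the parental mean of 0.465 ± 0.247 CPM (SD, n = 2), HGF was 25.7-fold higher in F6-A7, 33.8-fold in E3, 34.1-fold in C10 and 37.4-fold in A6-C9. The ratio was 0.865 in H9-A4, 0.635 in A9-A12 and 0.366 in G1-A5. The low values rested on few reads, 15 and 5 in the parental samples and 4 to 10 in H9-A4, A9-A12 and G1-A5, against 233 to 360 reads in the other 4 clones. The exact 95% binomial interval reached up to 1.06 CPM in parental-1, whereas in F6-A7, the lowest of the high clones, it was 10.5 to 13.6 CPM. These intervals cover counting error only, since reads are not independent molecules. Among the low samples the intervals overlapped, and no order among them is given. HGF averaged 6.05 ± 8.11 CPM (SD, n = 5) over the DIP2C+/- clones, a mean that no clone was near. Because each value is an average over a culture, fewer HGF-expressing cells and less HGF mRNA per cell cannot be told apart.

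The order of the clones by HGF was not their order by DIP2C mRNA. F6-A7 had 47.0 CPM of DIP2C and 11.96 CPM of HGF, whereas A9-A12 had 38.9 CPM of DIP2C and 0.296 CPM of HGF, and G1-A5 had 41.7 CPM and 0.17 CPM. A6-C9 had the lowest DIP2C level of the DIP2C+/- clones, 33.6 CPM, and the highest HGF level of all 9 samples. It was next to E3 (17.4 CPM) and C10 (22.8 CPM) at the low end of DIP2C. E3, C10 and A6-C9 were also the samples with the highest HGF levels, so that F6-A7 was the high clone out of order.

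**Figure D1:**
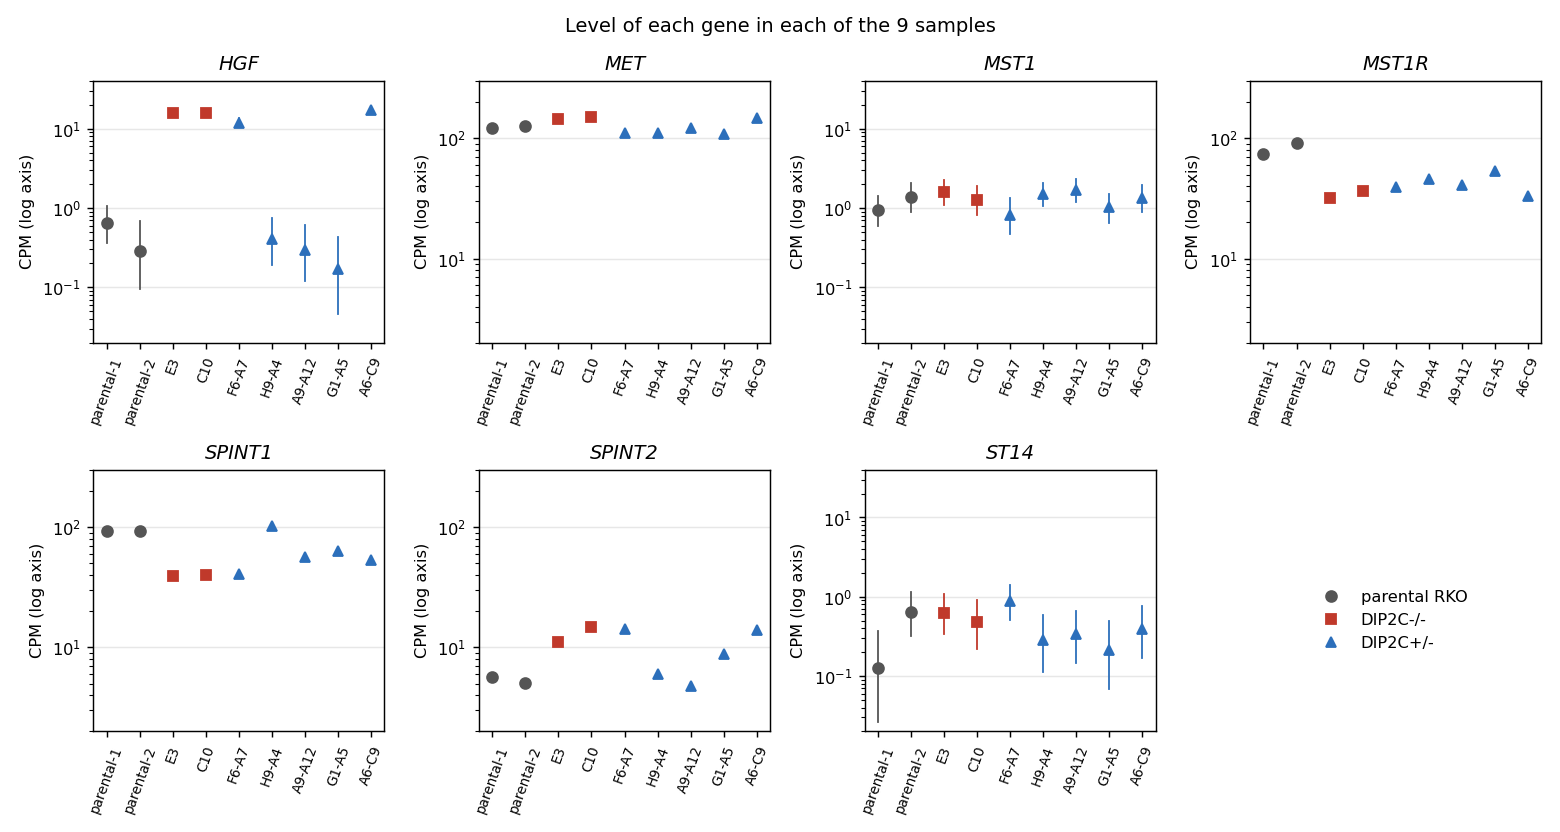
CPM on a log axis for each of the 7 genes in each of the 9 samples, with grey circles for parental RKO, red squares for DIP2C-/- and blue triangles for DIP2C+/- clones. Vertical lines in the HGF, MST1 and ST14 panels are exact 95% binomial intervals for counting error. HGF sits between 11.96 and 17.4 CPM in E3, C10, F6-A7 and A6-C9 and at or below 0.64 CPM elsewhere, while MET stays between 108.7 and 150.3 CPM.

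The receptor MET was present at a high level in every sample. It stood at 121.3 and 127.9 CPM in parental RKO and at 143.8 (E3) and 150.3 CPM (C10) in the DIP2C-/- clones. In the DIP2C+/- clones it stood at 149.0 (A6-C9), 121.7 (A9-A12), 111.0 (F6-A7), 108.7 (G1-A5) and 111.4 CPM (H9-A4). Both DIP2C-/- clones lay above the parental samples, by 0.24 ± 0.18 on the log2 scale (SE, adjusted p = 0.598, edgeR quasi-likelihood test), and the DIP2C+/- clones lay on both sides. MET differed by -0.05 ± 0.15 (SE, adjusted p = 0.932) between DIP2C+/- clones and parental RKO and by -0.29 ± 0.15 (adjusted p = 0.878) between DIP2C+/- and DIP2C-/- clones in the same edgeR fit. The 4 clones with high HGF therefore all carried MET mRNA, F6-A7 at 111.0 CPM and the other 3 at the 3 highest levels measured.

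The sister receptor MST1R was lower in every clone than in either parental sample. Parental RKO had 73.9 and 92.1 CPM, E3 and C10 had 32.2 and 36.7 CPM, and the DIP2C+/- clones had 33.3 (A6-C9), 41.1 (A9-A12), 39.1 (F6-A7), 53.3 (G1-A5) and 46.1 CPM (H9-A4). The fitted difference was -1.27 ± 0.23 on the log2 scale for DIP2C-/- (2.41-fold lower, adjusted p = 0.174) and -0.96 ± 0.18 for DIP2C+/- (1.95-fold lower, adjusted p = 0.133), which did not pass the threshold of 0.05 in the edgeR fit of all 9 samples. Without H9-A4 the differences were -1.27 ± 0.22 (adjusted p = 0.00919) and -0.99 ± 0.18 (adjusted p = 0.00793), and both passed. H9-A4 is in neither group of the DIP2C-/- comparison, here and for the genes below. Its removal acts there through the spread shared by all groups (biological coefficient of variation 0.2975 with it, 0.2419 without). A lower spread follows from leaving out the clone that stood apart. The 4 lowest MST1R levels were those of E3, A6-C9, C10 and F6-A7, the clones with high HGF. No link to HGF is read from this, since the share of all genes that set these 4 clones apart is not given here. DIP2C+/- and DIP2C-/- clones differed by 0.31 ± 0.19 (adjusted p = 0.898). RNA antisense to MST1R is annotated at its 5′ part and over its start, and the strand used in counting is not given in the sources used here.

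MST1, the ligand of MST1R, was low in all samples, at 0.938 and 1.40 CPM in parental RKO, 1.60 and 1.28 CPM in E3 and C10 and 0.822 to 1.69 CPM in the DIP2C+/- clones, on 16 to 40 reads. The groups overlapped, and the fitted difference from parental RKO was 0.30 ± 0.52 for DIP2C-/- (adjusted p = 0.85, edgeR) and 0.11 ± 0.44 for DIP2C+/- (adjusted p = 0.948). MST1 has near copies that could take or give reads. MST1, MST1L and MST1P2 together came to 2.79 and 4.01 CPM in parental RKO, 3.14 and 3.44 CPM in DIP2C-/- clones and 2.77 to 6.84 CPM in DIP2C+/- clones, again with overlap. The end of MST1 also overlaps APEH on the other strand, which was far more abundant at 234.2 to 351.0 CPM. The level of MST1 is therefore uncertain.

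Of the 2 inhibitors, SPINT1 was abundant and lower in 6 of the 7 clones. It stood at 92.8 and 92.7 CPM in parental RKO, at 39.6 and 40.2 CPM in E3 and C10 and at 53.2 (A6-C9), 56.9 (A9-A12), 40.4 (F6-A7), 63.0 (G1-A5) and 102.5 CPM (H9-A4) in the DIP2C+/- clones. H9-A4 was the only clone above the parental samples, and the 4 lowest levels were those of E3, C10, F6-A7 and A6-C9, again the clones with high HGF. As for MST1R, no link to HGF is read from this. The difference from parental RKO was -1.22 ± 0.34 on the log2 scale for DIP2C-/- (2.33-fold lower, adjusted p = 0.313, edgeR) and -0.55 ± 0.27 for DIP2C+/- (adjusted p = 0.468). Without H9-A4 it was -1.22 ± 0.20 (adjusted p = 0.00585) and -0.80 ± 0.16 (1.74-fold lower, adjusted p = 0.0137), and SPINT1 passed in both comparisons. The difference between DIP2C+/- and DIP2C-/- clones was 0.66 ± 0.29 with H9-A4 and 0.42 ± 0.17 without it (adjusted p = 0.878 and 0.69). An antisense RNA, SPINT1-AS1, overlaps the start of the gene.

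SPINT2 took the opposite direction. Of the tested members it had the smallest root-mean-square difference from HGF in centred log2 CPM over the samples. The difference was 2.03, beside 2.24 for ST14 and a median of 2.57 over all genes. It stood at 5.63 and 5.06 CPM in parental RKO and at 11.1 (E3) and 14.8 CPM (C10) in the DIP2C-/- clones. In the DIP2C+/- clones it stood at 14.1 (A6-C9), 4.77 (A9-A12), 14.2 (F6-A7), 8.73 (G1-A5) and 5.998 CPM (H9-A4). The 4 highest SPINT2 levels were those of C10, F6-A7, A6-C9 and E3, the clones with high HGF, which were also the 4 lowest for MST1R and SPINT1. The share of all genes that set these 4 clones apart is not given here. The split is therefore not read as particular to SPINT2, MST1R and SPINT1. SPINT2 differed from parental RKO by 1.27 ± 0.51 on the log2 scale in DIP2C-/- clones (2.42-fold, adjusted p = 0.359) and by 0.84 ± 0.44 in DIP2C+/- clones (adjusted p = 0.486), and did not pass with all 9 samples. Without H9-A4 the values were 1.28 ± 0.45 (adjusted p = 0.152) and 0.96 ± 0.40 (adjusted p = 0.187), again not past the threshold in edgeR. PPP1R14A lies within SPINT2 on the other strand and was at most 0.171 CPM. A protein-coding gene on the same strand, ENSG00000267748, is annotated across the end of SPINT2. It has no row under that name, so reads from it cannot be told apart from those of SPINT2 there.

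ST14, which encodes matriptase, was barely detected. Its level was 0.128 and 0.64 CPM in parental RKO, 0.63 and 0.48 CPM in E3 and C10, and 0.387 (A6-C9), 0.338 (A9-A12), 0.873 (F6-A7), 0.213 (G1-A5) and 0.282 CPM (H9-A4) in the DIP2C+/- clones, on 3 to 17 reads. All groups overlapped, and the largest upper limit of an exact 95% binomial interval was 1.40 CPM, in F6-A7. Differences between groups were not detectable at this depth, with 0.57 ± 0.86 for DIP2C-/- (adjusted p = 0.826, edgeR) and 0.14 ± 0.74 for DIP2C+/- (adjusted p = 0.963) against parental RKO.

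In the edgeR fit of all 9 samples 0 of the 6 tested members passed in any of the 3 comparisons, and 3, 1 and 1 of them had an unadjusted p under 0.05 in DIP2C-/- against parental RKO, DIP2C+/- against parental RKO and DIP2C+/- against DIP2C-/-. Of all 15532 genes tested, 0.00644%, 0.0966% and 0.0% passed at the adjusted threshold in these comparisons. The targeted gene DIP2C did not pass against parental RKO in this edgeR fit either. Its log2 difference was -1.71 ± 0.25 in DIP2C-/- (SE, adjusted p = 0.0998) and -0.60 ± 0.20 in DIP2C+/- (adjusted p = 0.3855). A gene that did not pass in this fit is therefore not read as unchanged. The share of all genes with an unadjusted p under 0.05 is not given here, so no excess is read from unadjusted counts. Without H9-A4, MST1R and SPINT1 were lower in both genotypes than in parental RKO, 2 of 6 members each, where 4.76% and 7.95% of all 15390 genes passed, and 0 of 6 passed between genotypes, where 0.0% of all genes did and 1 member had an unadjusted p under 0.05. DESeq2 with all 9 samples called MST1R and SPINT1 lower in DIP2C-/- (2.23% of all genes with an adjusted p) and MST1R lower in DIP2C+/- (1.35%), and 0 of 6 between genotypes. When the 4 samples of DIP2C-/- and parental RKO were fitted alone, edgeR called MST1R and SPINT1 lower and SPINT2 higher (12.6% of all genes). The samples of the groups did not overlap for 4 of 6 members in DIP2C-/- against parental RKO (MET and SPINT2 above, MST1R and SPINT1 below), where 53.6% of all genes did not overlap. In DIP2C+/- against parental RKO this held for MST1R, 1 of 6 members, where 14.2% of all genes did not overlap. The comparisons with parental RKO share the 2 parental samples.

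**Figure D2:**
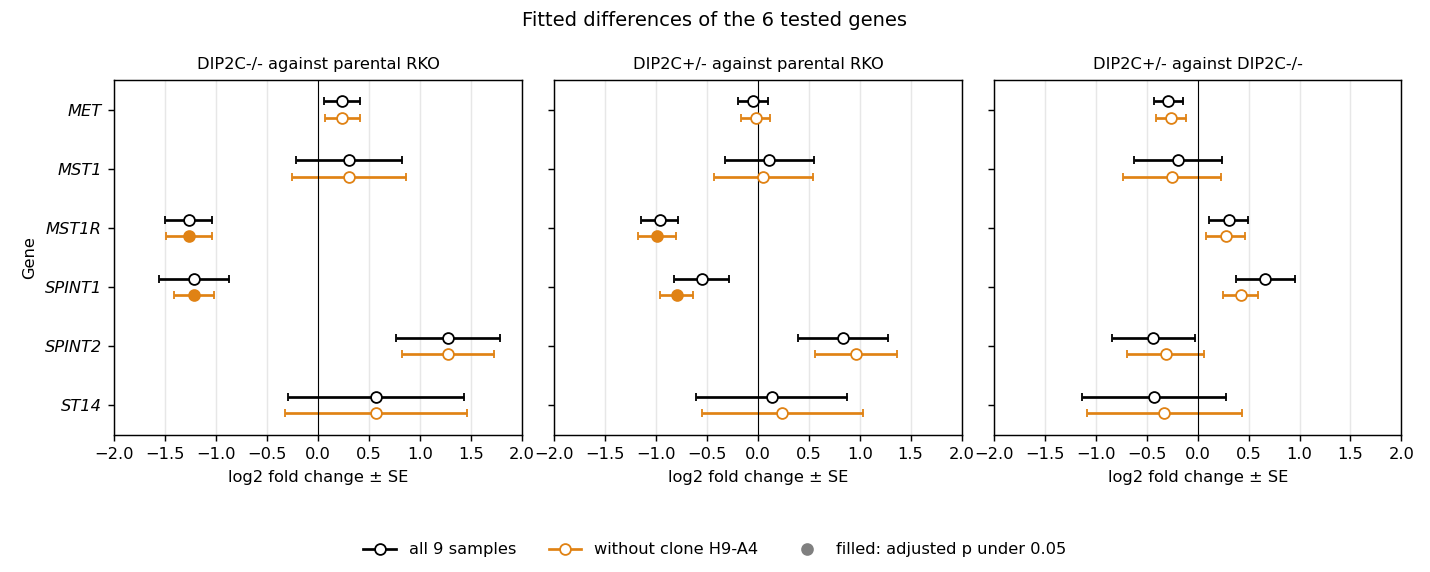
Fitted log2 fold changes with their SE for the 6 tested genes in the 3 comparisons, in black with all 9 samples and in orange without clone H9-A4, filled where the adjusted p was under 0.05. Filled symbols occur for MST1R and SPINT1 in both comparisons with parental RKO and only without H9-A4, and MET lies within 0.3 of 0 throughout.

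Seen clone by clone, as log2 CPM (prior count 2) minus the parental mean, MST1R was lower in 7 of 7 clones, by -0.63 (G1-A5) to -1.35 (E3). SPINT1 was between -0.56 and -1.23 in 6 clones and at 0.14 in H9-A4. SPINT2 was above parental in 6 clones, at 0.17 (H9-A4) to 1.45 (C10), and at -0.16 in A9-A12. MET stayed between -0.20 and 0.27, against 4.401 to 4.94 for HGF in the 4 clones where it was high. A clone is 1 library, so that these differences have no replicate check within these data. For HGF, the study reports RT-qPCR in independent DIP2C-/- samples, with a rise as in its RNA sequencing.

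**Figure D3:**
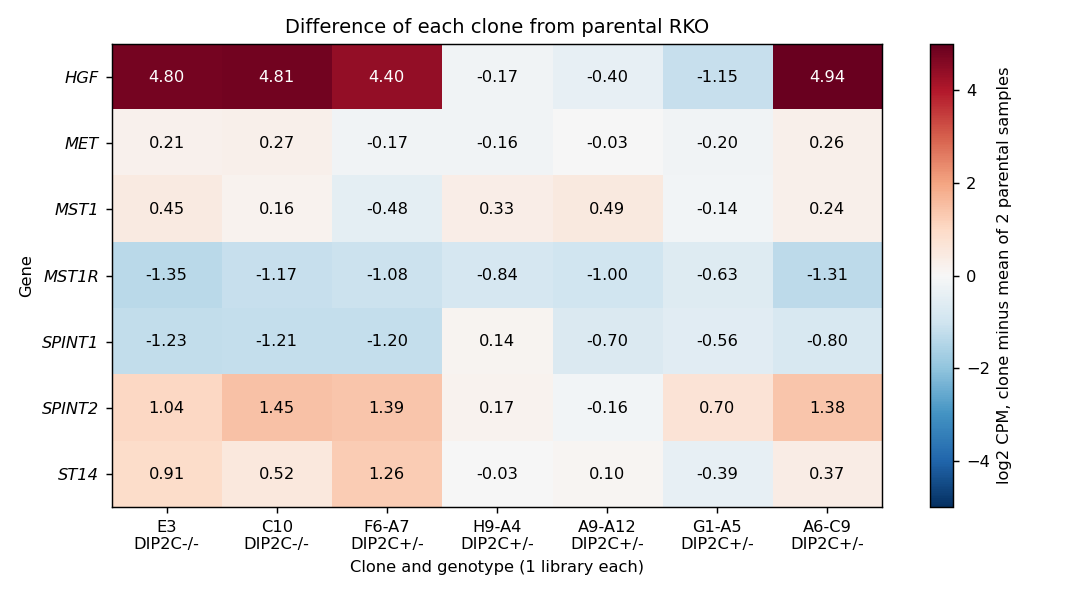
Log2 CPM of each clone minus the mean of the 2 parental samples for the 7 genes (rows) in the 7 clones (columns), with red for higher and blue for lower. HGF reads 4.401 to 4.94 in E3, C10, F6-A7 and A6-C9 and -0.17 to -1.15 in the other clones, and MST1R is blue in all columns.

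Levels of different genes were compared per kilobase of exon. The receptor and SPINT1 were of the same order, with MET at 15.1 to 20.8 CPM per kilobase and SPINT1 at 11.2 to 28.9, and MST1R ranged from 6.13 to 17.5. SPINT2 ranged from 0.938 to 2.90 CPM per kilobase. HGF reached 1.23 to 1.78 CPM per kilobase in the 4 clones where it was high and was at most 0.0656 in the other samples, while MST1 ranged from 0.162 to 0.332 and ST14 from 0.0311 to 0.212. With the length of the canonical transcript in place of the union of exons SPINT2 rose most, to 2.83 to 8.75 CPM per kilobase, and HGF reached up to 2.98.

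Proteases other than matriptase that can cleave pro-HGF or pro-MST1, or that activate matriptase, were examined from a list of 11. Of these, 7 stayed under 1 CPM in all 9 samples and were not kept by the filter, namely the HGF activator itself (HGFAC, at most 0.581 CPM), hepsin (HPN, at most 0.462 CPM), TMPRSS2, KLK4, KLK5, prostasin (PRSS8) and plasma kallikrein (KLKB1). TMPRSS13 reached 1.02 CPM. The 3 proteases above this level were coagulation factor XII (F12) at 9.13 to 19.7 CPM, urokinase (PLAU) at 5.96 to 43.1 CPM and tissue plasminogen activator (PLAT) at 0.564 to 11.5 CPM. Per kilobase of exon F12 was at 1.62 to 3.48 CPM, PLAU at 2.02 to 14.6 and PLAT at 0.0725 to 1.48.

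Urokinase was highest in A9-A12, at 43.1 CPM, where HGF was 0.296 CPM, and second in F6-A7, at 17.0 CPM, and it stood at 5.96 to 9.86 CPM in all other samples. PLAT was 3.11 and 5.41 CPM in parental RKO, 11.5 and 8.47 CPM in E3 and C10, and 11.4 (A6-C9), 8.95 (A9-A12), 10.1 (F6-A7), 6.17 (G1-A5) and 0.564 CPM (H9-A4) in DIP2C+/- clones, so that every clone but H9-A4 was above both parental samples. None of the 4 tested proteases passed in edgeR in any comparison, with or without H9-A4. With all 9 samples 0 of 4 had an unadjusted p under 0.05. Without H9-A4 only PLAT did, against parental RKO. Its log2 difference was then 1.22 ± 0.38 in DIP2C-/- (SE, adjusted p = 0.101, edgeR) and 1.09 ± 0.34 in DIP2C+/- (adjusted p = 0.0779). The share of all genes at the unadjusted threshold is not given here. In the 4 clones with high HGF, F12, PLAU and PLAT were thus the listed proteases with more than about 1 CPM. In these clones SPINT1 stood at 39.6 to 53.2 CPM and SPINT2 at 11.1 to 14.8 CPM. Whether these inhibitors act on F12, PLAU or PLAT was not tested. The proteins, their cleavage and the activity of MET were not measured here.

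**Figure D4:**
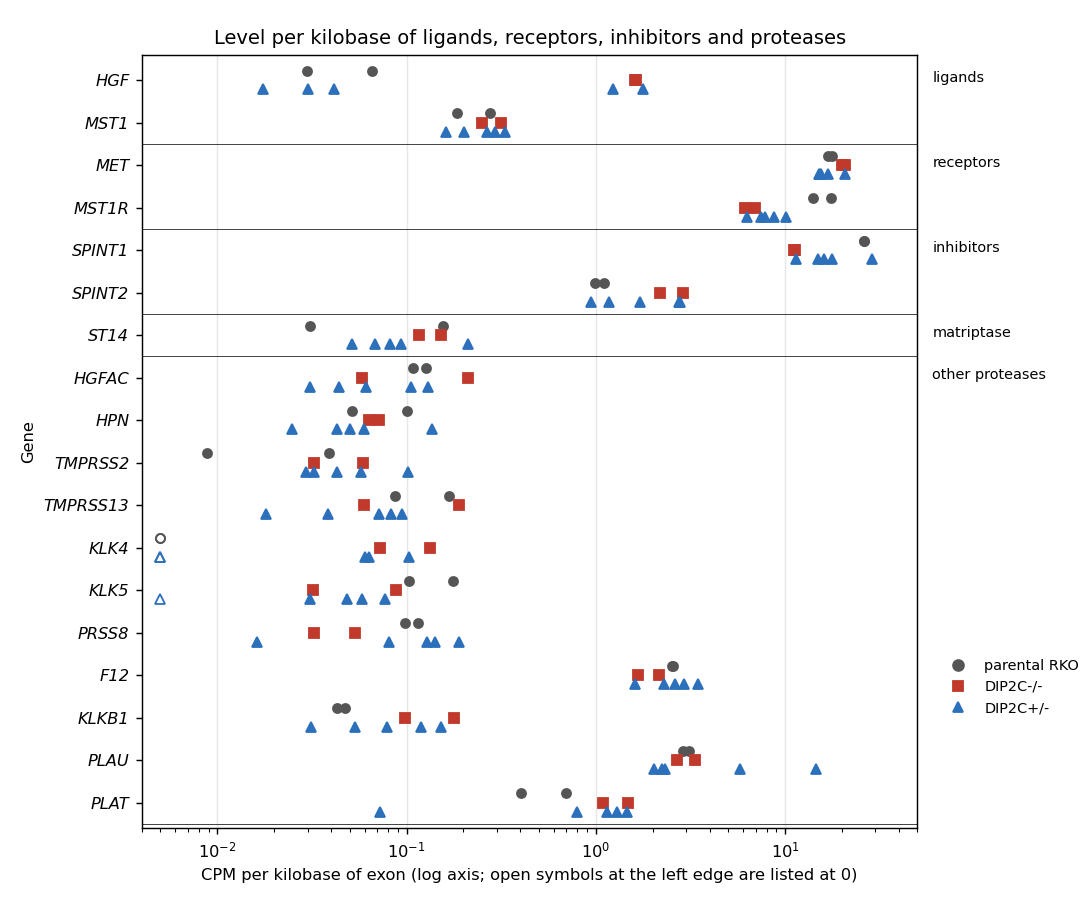
CPM per kilobase of exon on a log axis for the ligands, receptors, inhibitors, matriptase and the 11 other listed proteases, 1 symbol per sample with the same symbols for the groups. MET, MST1R and SPINT1 lie above 6 CPM per kilobase in every sample, ST14, HGFAC, HPN, TMPRSS2, TMPRSS13, KLK4, KLK5, PRSS8 and KLKB1 lie below 0.3, and F12, PLAU and PLAT lie in between, apart from PLAU in A9-A12 at 14.6 and PLAT in H9-A4 at 0.0725.

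The pathway around MET was described with 40 listed genes, of which 33 were tested. With all 9 samples 0 of 33 passed in any comparison in edgeR, and 8, 6 and 1 had an unadjusted p under 0.05 in the order of comparisons above. No share of all genes at that unadjusted threshold is given beside these counts, so no excess is read from them. The median log2 difference of the tested genes was -0.01 in DIP2C-/- and 0.02 in DIP2C+/- against parental RKO, beside 0.02 and 0.02 over all genes tested. Without H9-A4, 4 of 33 passed in DIP2C-/- and 5 of 33 in DIP2C+/- against parental RKO, beside the 4.76% and 7.95% of all genes given above. DESeq2 with all 9 samples called SDC1 lower in DIP2C-/- and PTPN1 lower in DIP2C+/-, 1 of 33 each. Of all genes with an adjusted p, 2.23% and 1.35% were called.

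The surface partners of MET held most of these calls. CD44, whose v6 isoform presents HGF to MET, stood at 28.5 and 24.9 CPM in parental RKO, 181.9 and 272.2 CPM in E3 and C10 and 287.1 (A6-C9), 187.5 (A9-A12), 183.9 (F6-A7), 163.8 (G1-A5) and 1.01 CPM (H9-A4) in DIP2C+/- clones. It was thus high in every clone but H9-A4, including A9-A12 and G1-A5, where HGF was close to the detection limit, and the counts do not separate its isoforms. Without H9-A4 CD44 was 3.09 ± 0.29 higher on the log2 scale in DIP2C-/- (adjusted p = 0.000144, edgeR) and 2.95 ± 0.27 in DIP2C+/- (adjusted p = 8.25e-05), whereas with all 9 samples the adjusted p for DIP2C-/- was 0.383. CD44 was among the genes the study examined in these samples, so that its direction is not independent evidence.

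NRP1, a co-receptor that binds HGF, went from 1.19 and 2.15 CPM in parental RKO to 9.59 and 16.7 CPM in E3 and C10. It stood at 7.14 to 22.3 CPM in 4 DIP2C+/- clones and at 1.05 CPM in H9-A4. Without H9-A4 NRP1 was 2.97 ± 0.55 higher in DIP2C-/- (adjusted p = 0.012, edgeR) and 2.98 ± 0.52 in DIP2C+/- (adjusted p = 0.00572). The laminin receptor subunit ITGA6 fell by 1.08 ± 0.24 (adjusted p = 0.028) and by 0.87 ± 0.20 (adjusted p = 0.0229) on the log2 scale in the same edgeR fits. SDC1, a heparan sulphate proteoglycan that binds HGF, fell by 0.80 ± 0.19 in DIP2C-/- (adjusted p = 0.0391), and in DIP2C+/- the value was -0.28 ± 0.16 (adjusted p = 0.36). The difference of SDC1 between genotypes was 0.52 ± 0.17 (adjusted p = 0.679). PLXNB1 and ITGB4 did not pass.

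All 13 adaptors and effectors downstream of MET, among them GRB2, GAB1, SHC1, SRC and STAT3, and all 10 genes that lower or shed MET were kept by the filter. GRB2 reached 199.9 CPM and STAT3 195.4 CPM, and GAB1, the scaffold that docks on MET, reached 9.94 CPM. RAPGEF1 and SHC1 were among the highest per kilobase of exon, at 36.6 to 57.5 and 58.8 to 145.5 CPM. SHC1, an adaptor to the RAS pathway, was 293.9 and 292.5 CPM in parental RKO and 427.5 to 631.8 CPM in every clone except H9-A4, at 255.4 CPM. Without H9-A4 it was 0.91 ± 0.15 higher in DIP2C+/- (adjusted p = 0.00374, edgeR) and 0.57 ± 0.16 in DIP2C-/- (adjusted p = 0.0778). PTPN1, a phosphatase that acts on MET, was 317.6 and 289.4 CPM in parental RKO and 168.7 to 241.5 CPM in the 7 clones. It fell by 0.66 ± 0.12 in DIP2C+/- without H9-A4 (adjusted p = 0.0083), and in DIP2C-/- the value was -0.57 ± 0.15 (adjusted p = 0.0508).

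Genes with a profile most like that of HGF were sought over the 9 samples by the root-mean-square difference of centred log2 CPM. Among 15531 genes, for which the median was 2.57, PDE4DIP (0.57), LOC100505718 (0.59), KRTAP4-9 (0.609), MOK (0.626) and CALB2 (0.722) were nearest. PDE4DIP was 471 to 908.4 CPM in E3, C10, F6-A7 and A6-C9 and 27.4 to 37.7 CPM in the other samples. MOK, a MAP kinase-related kinase, was 101.8 to 194.2 CPM and 5.06 to 10.4 CPM in the same samples, and CALB2, the calcium-binding protein calretinin, was 10.2 to 21.3 CPM and 0.469 to 0.931 CPM. KRTAP4-9 was listed at 0 in all 5 samples low in HGF and was at most 3.09 CPM. The nearest tested member was SPINT2, at 2.03, and the farthest were SPINT1, at 2.98, and MST1R, at 2.93, whose lowest rather than highest levels fell in the clones with high HGF. These genes were ranked by likeness to HGF in the same samples and no test was made.

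Markers of fibroblasts and other stromal cells, the usual source of HGF, were measured beside it. The summed level of the 11 markers was 7.46 and 9.49 CPM in parental RKO, 13.7 and 15.8 CPM in DIP2C-/- clones and 6.96 to 16.8 CPM in DIP2C+/- clones. Of the 11, 4 (DCN, THY1, FAP and POSTN) stayed under 1 CPM in all samples, COL1A1 reached 2.85 CPM, COL1A2 1.31 CPM and COL3A1 1.16 CPM, LUM reached 4.98 CPM in G1-A5 and was at most 0.591 CPM elsewhere, and only ACTA2 passed 10 CPM. ACTA2, smooth muscle actin, was 0.938 and 0.931 CPM in parental RKO, 4.99 and 10.8 CPM in E3 and C10, and 11.3 (A6-C9), 8.11 (A9-A12), 8.78 (F6-A7), 3.36 (G1-A5) and 0.161 CPM (H9-A4) in the DIP2C+/- clones. It was thus above both parental samples also in A9-A12 and G1-A5, where HGF was 0.296 and 0.17 CPM. The part of the stromal markers in the HGF level was not tested.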

How the data were processed

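RNA of 9 RKO samples was sequenced by the authors on the Ion Proton system. Reads were aligned to hg19 with TopHat2 and quantified with Cufflinks, for which the submitters' processing notes give versions 2.0.4 and 2.2.1. The authors deposited estimated counts per gene, which are not whole, and the sources used here do not say how these were derived from Cufflinks. In each sample 98.3% to 98.8% of low values (under 20) lay within 0.02 of a whole multiple of 1 step (0.711 to 1.11), and division by the step gave 17134472 to 24864011 reads. A count model misjudges the depth of such scaled values somewhat. The planned test was for whole counts, so estimated counts were rounded.

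Genes were kept with filterByExpr (15532 of 23619), scaled by TMM and fitted with 1 coefficient per genotype over all 9 samples in edgeR 4.0.16 (R 4.3.3). A gene passed at a Benjamini-Hochberg adjusted p under 0.05 in the quasi-likelihood test over all genes. SE was |log2 fold change|/√F. CPM used unrounded values. The fits were tested on simulated data. Alternatives were DESeq2 1.42.0, other normalizations and filters, only the compared groups, values divided by the step, each sample left out in turn and, added after seeing the data, canonical transcript lengths. Replicate pairs differed by more than sampling noise (chi-square per degree of freedom 18.0 to 117.7). Separate cultures are not stated for the parental samples, so p-values measure the spread between these samples, which may be technical. No batch or date is given.

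The members and lists were chosen with earlier results of these data known. Named were the 7 members, DIP2C, listed pathway genes that passed or were highest per kilobase, near copies of MST1 and the 5 genes nearest to HGF. Other listed genes were named as examples after their values were seen. Annotation was GENCODE 44 lifted to GRCh37.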

Additional observations from a re-analysis of the deposited data

Results flagged for a closer look

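Each gene of the group, each tested gene of the pathway list and DIP2C were examined in the 5 DIP2C+/- clones for a clone whose gap to its neighbour, divided by the range, both on log2 CPM, exceeded Dixon's critical value of 0.71. Of 41 sets of values 4 did so, and chance gives about 1 in 20. CD44 was lowest in H9-A4, at 1.01 CPM against 163.8 to 287.1 CPM in the other 4 clones (0.899). PLAT was lowest in H9-A4, at 0.564 CPM against 6.17 to 11.4 CPM (0.787). ADAM10, a protease that sheds MET, was highest in H9-A4, at 112.3 CPM against 89.1 to 92.5 CPM (0.838). PIK3CA, the catalytic subunit of PI3 kinase, was highest in G1-A5, at 43.9 CPM against 27.9 to 31.0 CPM (0.766).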

How the results depend on the processing

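The number of members that passed in DIP2C-/- against parental RKO rose from 0 to 2 with DESeq2, to 3 with only the compared groups and to 2 without H9-A4, and in DIP2C+/- against parental RKO from 0 to 1 with DESeq2 and to 2 without H9-A4. For the pathway list the same counts, of 33 genes, rose from 0 to 1, 8 and 4 in DIP2C-/- and from 0 to 1 (DESeq2) and 5 (without H9-A4) in DIP2C+/-. Of all genes, 2.23%, 12.6% and 4.76% passed under these settings in DIP2C-/-, and 1.35% and 7.95% in DIP2C+/-. Leaving out each sample in turn thus gave 0 to 2 members and 0 to 4 or 5 listed genes, and samples other than H9-A4 gave 0. The other 86 recomputed counts stayed the same. Over all genes, DIP2C-/- against parental RKO gave 1 call with all 9 samples, 733 without H9-A4 and 1 to 4 without any other sample, and 0 to 1807 under the other settings; DIP2C+/- gave 15, 1224, 1 to 8 and 8 to 193. DIP2C+/- against DIP2C-/- gave 0 calls with all 9 samples in edgeR, 0 to 3 with a sample left out, 1 with only the compared groups and 6 with DESeq2. For MST1R the log2 fold change ranged from -1.43 to -1.11 in DIP2C-/- (adjusted p = 0.000338 to 0.768) and from -1.11 to -0.79 in DIP2C+/- (adjusted p = 0.00164 to 0.868). SPINT1 ranged from -1.27 to -1.19 and from -0.80 to -0.43, and SPINT2 from 1.01 to 1.48 and from 0.65 to 1.01. Direction changed for ST14 and MST1, both low, and for no other tested member. ST14 turned to -0.20 in DIP2C-/- without parental replicate 1 (-0.20 to 2.24 over all samples left out in turn), and in DIP2C+/- to -0.61 without parental replicate 1 and -0.29 without F6-A7 (-0.61 to 1.83). MST1 in DIP2C+/- turned to -0.15 without parental replicate 1 and -0.0037 without A9-A12 (-0.15 to 0.44). Their cause was not tested. ST14 has no value with a minimum of 10 counts in every sample, since it fails that filter. Depth limits HGF in the low samples, MST1 and ST14, which rest on 3 to 40 reads. No paired analysis was possible because the groups share no replicate numbers in the labels that tie samples together.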
